A study of Mus musculus with 6 samples.

Results

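The immediate early genes described here are 10 genes, Fos, Fosb, Jun, Junb, Egr1, Egr2, Ier2, Atf3, Nr4a1 and Dusp1, out of 13116 genes listed for epididymal adipose tissue. The rule that picks them uses gene names and no measured value. All 10 were in the gene table, and all 10 passed the filter on low values, which kept the 12847 genes whose FPKM averaged 0.5 or more, for testing. FPKM, the number of sequenced fragments per unit of transcript length and of sequencing depth, is a level corrected for both. RNA of whole epididymal fat pads was sequenced from 3 control mice (HuRflox/flox:AdipoQ-Cre-) and 3 HuRAKO mice (HuRflox/flox:AdipoQ-Cre+). All 6 were C57BL/6 mice that carried the floxed HuR alleles and had eaten a high-fat diet for 16 weeks from 8 weeks of age. AdipoQ-Cre acts in adipocytes, so the vessel, immune, mesothelial and stromal cells of the pad keep their HuR genes, and each value below is a sum over all of these cells. Mice are called by group and replicate number, and positions of genes are those of the deposited table (GRCm38).

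Immediate early genes are transcribed within minutes of a stimulus such as a growth factor, a hormone that raises cAMP, a cytokine or physical stress, by transcription factors that are already present in the cell. Most of their products are transcription factors, which then switch on later genes, and a few shut the signal off again. Their mRNAs are short-lived, in many cases through AU-rich elements in the 3′-UTR. HuR, encoded by Elavl1, is an RNA-binding protein that binds such elements and is known to slow the decay of mRNAs that carry them, and the mRNA of Fos is a textbook example of an AU-rich mRNA. The comparison of the 2 genotypes asks whether the tissue levels of these mRNAs differ when adipocytes are made to lack HuR.

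The sequences that regulate these genes are shown first, because the members share them to different degrees. Of the 10 genes, 8 had a promoter region in RefSeq (GRCm38.p6, 250 bases before to 50 bases after a start site), all but Egr1 and Ier2. The core of the cAMP response element, TGACG on either strand, was present in 7 of these 8, in Fos, Fosb, Junb, Egr2, Atf3, Nr4a1 and Dusp1 and not in Jun, against 23.0% of the 27025 genes with such regions (20.8% of the 32851 regions themselves, since a gene can have several). The full palindrome TGACGTCA, which contains this core on both strands, was found only in Dusp1 among the 8 members and in 2.03% of all genes. Jun held the related sequence TGACATCA, which 4.18% of all genes have, and Egr2 held a CArG box, the binding motif of serum response factor, which 1.81% have. The AP-1 motif (TGACTCA or TGAGTCA) was in 0 of the 8 members and in 5.95% of all genes. TATAAA was in 2 of them, Fos and Junb, and in 9.77% of all genes. These are matches of letters in a fixed window. Motifs farther upstream, or at Egr1 and Ier2, were not searched, so a member without a match here can still have the motif. Stretches of 28 bases are printed 5′ to 3′ on the strand of the gene, with the motif in capitals. They lie at chr12:85473813-85473840 (Fos, + strand), chr17:26508598-26508625 (Dusp1, − strand), chr4:95052250-95052277 (Jun, − strand), chr10:67537788-67537815 (Egr2, + strand), chr1:191183324-191183351 (Atf3, − strand) and chr15:101266795-101266822 (Nr4a1, + strand).
Fos, cAMP element core: gttccgcccagTGACGtaggaagtccat
Dusp1, full cAMP element: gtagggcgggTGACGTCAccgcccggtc
Jun, AP-1-like site: agcctcggggTGACATCAtgggctattt
Egr2, CArG box: ttcctcagtCCATATATGGgcagcgacg
Atf3, cAMP element core on the other strand: taatagcattaCGTCAgcctgggattgg
Nr4a1, cAMP element core on the other strand: ccctctccatgCGTCAcggagcgcttaa
The motif began 66 bases before the RefSeq start in Fos, 143 before it in Dusp1, 45 in Jun, 72 in Egr2, 7 in Atf3 and 40 in Nr4a1. Nr4a1 held 4 such cores in its region, the largest number among the 8 members.

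The AU-rich element, through which HuR binds mRNAs, was searched as ATTTA in the longest 3′-UTR that GENCODE M21 annotates for each gene on GRCm38. At least 1 ATTTA was present in 9 of the 10 members, all but Ier2, against 69.8% of 12700 tested genes with a 3′-UTR. The longer form TATTTAT was in 5 of 10 (Fos, Fosb, Jun, Atf3 and Dusp1) against 29.7%, and the 9-base form TTATTTATT, which contains both shorter forms, was in 2 of 10 (Fos and Dusp1) against 7.90%. The median 3′-UTR was 1000.5 bases for the members and 1160 for all genes. The stretches below, of 30 bases, show the densest match of the members with 4 ATTTA each, Fos, Dusp1 and Jun, and that of Nr4a1, which has 3. They lie at chr12:85477102-85477131 (Fos, + strand), chr17:26506157-26506186 (Dusp1, − strand), chr4:95049078-95049107 (Jun, − strand) and chr15:101274702-101274731 (Nr4a1, + strand), with each ATTTA in capitals.
Fos, 3′-UTR: gtgttttcaATTTATTTAttaagatggatt
Dusp1, 3′-UTR: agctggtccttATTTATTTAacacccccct
Jun, 3′-UTR: ttgcttgtgcatATTTAtaatagcgttcgt
Nr4a1, 3′-UTR: ATTTAtatttgtgtattttcctggATTTAt
In Fos and Dusp1 a pair of ATTTA motifs overlaps by 1 base, whereas in Nr4a1 the motifs of the stretch stand apart. The other counts were 3 in Egr2 and Atf3, 2 in Junb and Egr1 and 1 in Fosb.

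Before the members are compared, the libraries were checked. Elavl1 was measured at 3.93, 4.85 and 4.98 FPKM in control replicates 1, 2 and 3 and at 4.66, 5.24 and 5.63 FPKM in HuRAKO replicates 1, 2 and 3, a log2 fold change of 0.15 (adjusted p = 0.807, limma). It was thus not lower in the libraries labelled HuRAKO, and the groups below are named by their labels. Each value covers the whole gene in the whole tissue, the exons outside the deletion and the cells without Cre included. The paper reported lower HuR mRNA by qPCR in adipose tissue of HuRAKO mice. Why Elavl1 was not lower here was not tested. Control replicate 3 stood apart from the other libraries, with correlations over genes of 0.932 to 0.945 with them, against 0.961 to 0.975 among the other 5. All 12 adipocyte markers, such as the adiponectin gene Adipoq, were measured, with a summed level of 8796 to 12994 FPKM in control and 11238 to 12326 FPKM in HuRAKO mice, and the labelled tissue thus had its defining markers. Depth per mouse is unknown, so errors come from the spread between mice.

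None of the 10 immediate early genes passed a test of a difference between the genotypes. By limma on log2(FPKM + 1), 0 of 10 passed an adjusted p of 0.05, as 0.00778% of all tested genes did, 0 of 10 passed the thresholds of the study (fold above 1.5 with an unadjusted p under 0.05), as 2.62% did, and 0 of 10 reached an unadjusted p under 0.05, as 8.03% did. In 0 of 10 were the values of the groups free of overlap, as they were in 14.7% of all tested genes. On the log2 scale the mean was higher in HuRAKO mice for 5 members, as for 46.8% of tested genes, and lower for 5, and the median log2 fold change was −0.04, beside −0.01 over all tested genes. In this bulk tissue fewer cells of a type and less RNA per cell cannot be told apart. What the members did show was a wide spread between control mice, with control replicate 1 low and control replicate 3 high, as the plot of each gene by mouse shows.

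**Figure D1:**
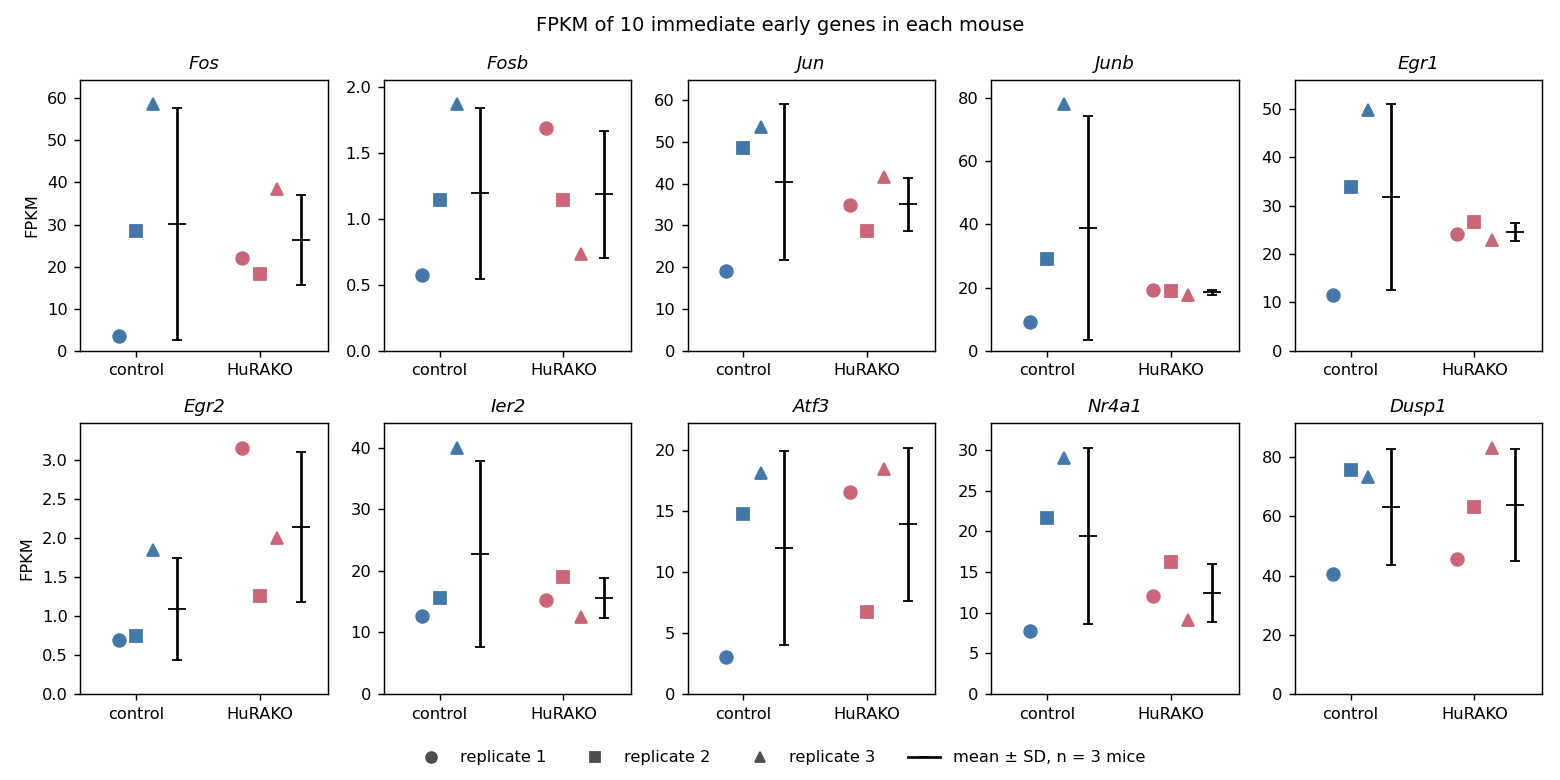
FPKM of the 10 immediate early genes in each mouse, 1 panel per gene with its own axis from 0; symbols are single mice, and the black bar is the mean ± SD of 3 mice. The groups overlap in every panel, control replicate 1 (blue circle) is the lowest of the 6 mice in 9 panels, and the 3 HuRAKO values of Junb and Egr1 lie close together.

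The members spanned a wide range of levels. Since FPKM is corrected for length, genes were ranked by it, here by the gene-level value. Some transcript values, given below for Dusp1, Jun and Junb, gave another order. The gene-level mean over the 6 mice was 63.6 FPKM for Dusp1, 37.7 for Jun, 28.6 for Junb, 28.2 for Fos, 28.1 for Egr1, 19.2 for Ier2, 15.9 for Nr4a1, 12.97 for Atf3, 1.61 for Egr2 and 1.19 for Fosb. All neighbours in this order overlapped in their ranges over the mice. The overlap was least for Atf3 and Egr2, with 2.998 FPKM for Atf3 in control replicate 1 and 3.16 FPKM for Egr2 in HuRAKO replicate 1, and within each mouse Atf3 lay above Egr2. Egr2 and Fosb were the lowly expressed members.

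Fos (ENSMUSG00000021250.13, chr12:85473890-85477273, + strand) encodes the Fos subunit of the transcription factor AP-1, which binds DNA as a dimer with a Jun protein. In control replicates 1, 2 and 3 Fos was measured at 3.40, 28.3 and 58.6 FPKM, and in HuRAKO replicates 1, 2 and 3 at 22.2, 18.2 and 38.4 FPKM. All 3 HuRAKO values lay inside the range of the control mice. The means were 30.1 ± 27.6 FPKM in control and 26.2 ± 10.7 FPKM in HuRAKO mice (SD, n = 3). The log2 fold change was 0.40, with a standard error of 0.92 and a 95% interval of −1.83 to 2.62 (adjusted p = 0.932, limma). The mean of Fos was thus higher in HuRAKO mice on the log scale of the fit and lower on the linear scale. The highest control value was 17.2 times the lowest, and 99.6% of all tested genes had a smaller residual SD than Fos.

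Fosb (ENSMUSG00000003545.3, chr7:19302696-19310051, − strand), a paralogue of Fos that also joins Jun proteins, was lowly expressed. It was measured at 0.575, 1.14 and 1.87 FPKM in control replicates 1 to 3 and at 1.68, 1.14 and 0.731 FPKM in HuRAKO replicates 1 to 3. Both groups covered nearly the same range, and the log2 fold change was 0.01 (95% interval −0.61 to 0.64, adjusted p = 0.995, limma). Its transcripts differed from mouse to mouse in another way. Fosb-201, which encodes 338 residues, was listed at 0, 1.42 and 1.98 FPKM in control and at 2.37, 0.00166 and 0.000791 FPKM in HuRAKO replicates 1 to 3. Fosb-205, with a shorter coding sequence of 299 residues, was listed at 0.611, 0 and 0 FPKM in control and at 0, 1.19 and 0.814 FPKM in HuRAKO replicates 1 to 3. Each mouse thus had nearly all of its Fosb signal assigned to a single transcript, to Fosb-201 in control replicates 2 and 3 and HuRAKO replicate 1 and to Fosb-205 in the others, and both groups contained mice of either kind. A value listed at 0 can be a failed estimate, which was not tested here.

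Jun (ENSMUSG00000052684.4, chr4:95049034-95052222, − strand), the partner of Fos in AP-1, was measured at 19.1, 48.6 and 53.5 FPKM in control replicates 1 to 3 and at 35.0, 28.6 and 41.5 FPKM in HuRAKO replicates 1 to 3. The HuRAKO mice lay between the low control replicate 1 and the other controls. The difference was −0.09 on the log2 scale (95% interval −1.03 to 0.86, adjusted p = 0.973, limma).

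Junb (ENSMUSG00000052837.6, chr8:84974484-84978718, − strand) encodes a Jun family member that forms AP-1 dimers of lower activity than Jun in many settings. In control replicates 1 to 3 it was measured at 9.11, 29.1 and 78.0 FPKM, and in HuRAKO replicates 1 to 3 at 19.1, 18.9 and 17.6 FPKM. The control mice thus spread over 8.56-fold, while the highest HuRAKO value was 1.09 times the lowest. The means were 38.7 ± 35.4 and 18.5 ± 0.838 FPKM (SD, n = 3). Although the control mean was the higher, control replicate 1 lay below every HuRAKO mouse, and the log2 fold change of −0.57 (standard error 0.68, 95% interval −2.21 to 1.08) did not pass the test (adjusted p = 0.865, limma, and p = 0.7, two-sided exact permutation test, for which 0.1 is the smallest p that 3 against 3 mice allow).

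Egr1 (ENSMUSG00000038418.7, chr18:34859823-34864984, + strand), a zinc-finger transcription factor induced by serum and growth factors through serum response factor, had the same form. It was measured at 11.6, 33.9 and 49.7 FPKM in control replicates 1 to 3 and at 24.1, 26.6 and 22.8 FPKM in HuRAKO replicates 1 to 3. Again the HuRAKO values lay together inside the range of the controls, which spread over 4.29-fold against 1.17-fold. Between the genotypes Egr1 differed by a log2 fold change of −0.15 (95% interval −1.31 to 1.02, adjusted p = 0.958, limma).

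Egr2 (ENSMUSG00000037868.15, chr10:67535475-67542188, + strand), a related zinc-finger factor that promotes adipocyte differentiation in mouse cells, had the smallest p of the 10. The values were 0.686, 0.739 and 1.84 FPKM in control replicates 1 to 3 and 3.16, 1.26 and 1.997 FPKM in HuRAKO replicates 1 to 3. The means were 1.09 ± 0.651 and 2.14 ± 0.957 FPKM (SD, n = 3). HuRAKO replicate 2 lay below control replicate 3, so the groups overlapped. For Egr2 the log2 fold change was 0.59 (standard error 0.29, 95% interval −0.12 to 1.29, unadjusted p = 0.0881 and adjusted p = 0.688, limma, and p = 0.2, exact permutation test). Egr2 was the only member whose SD on the log2 scale was not larger in control than in HuRAKO mice (0.42 and 0.44). As a ratio of highest to lowest value its spread was 2.68-fold in control and 2.51-fold in HuRAKO mice.

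Ier2 (ENSMUSG00000053560.4, chr8:84661331-84662852, − strand), which encodes a short nuclear protein of the immediate early response, was the only member whose lowest value was not in control replicate 1. Its level was 12.58, 15.6 and 40.02 FPKM in control replicates 1 to 3 and 15.2, 19.0 and 12.56 FPKM in HuRAKO replicates 1 to 3. The lowest value, in HuRAKO replicate 3, was thus nearly equal to that of control replicate 1. Only control replicate 3 lay above all HuRAKO mice. For Ier2 the log2 fold change was −0.36 (95% interval −1.36 to 0.65, adjusted p = 0.862, limma). No ATTTA was found in the 3′-UTR of Ier2, and a link between this and its values was not tested.

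Atf3 (ENSMUSG00000026628.13, chr1:191170296-191218039, − strand), a stress-induced transcription factor of the ATF/CREB family that mostly represses, was measured at 2.998, 14.8 and 18.1 FPKM in control replicates 1 to 3. In HuRAKO replicates 1 to 3 it was measured at 16.6, 6.77 and 18.5 FPKM. Each group thus held 1 low mouse and 2 mice at about the same level. The log2 fold change was 0.38 (95% interval −1.20 to 1.96, adjusted p = 0.908, limma), and the control mice spread over 6.05-fold.

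Nr4a1 (ENSMUSG00000023034.6, chr15:101266846-101274792, + strand) encodes the orphan nuclear receptor Nur77, which is induced by cAMP and catecholamines in adipose tissue and muscle. Control replicates 1 to 3 had 7.70, 21.6 and 29.1 FPKM of Nr4a1 mRNA and HuRAKO replicates 1 to 3 had 11.98, 16.2 and 9.10 FPKM. Here 2 of the 3 controls lay above every HuRAKO mouse, and control replicate 1 lay below all of them. The log2 fold change was −0.46 (standard error 0.47, 95% interval −1.59 to 0.67, adjusted p = 0.837, limma).

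Dusp1 (ENSMUSG00000024190.6, chr17:26505590-26508519, − strand) encodes the phosphatase that inactivates the stress and mitogen-activated kinases p38, JNK and ERK and so closes the response. By its gene-level value it was the most highly expressed member, with 40.6, 75.7 and 73.2 FPKM in control replicates 1 to 3 and 45.5, 63.2 and 83.3 FPKM in HuRAKO replicates 1 to 3. The means were 63.2 ± 19.6 and 64.0 ± 18.9 FPKM (SD, n = 3), and the log2 fold change was 0.03 (95% interval −0.72 to 0.78, adjusted p = 0.991, limma). Its gene-level control values spread the least of the 10 members as a ratio, over 1.87-fold. The only listed transcript of the gene, Dusp1-201, was lower. It had 18.8, 45.9 and 31.6 FPKM in control and 27.6, 31.8 and 42.0 FPKM in HuRAKO replicates 1 to 3. Among transcripts Jun-201 was higher on average, at 40.4 and 35.0 FPKM in control and HuRAKO mice, beside 32.1 and 33.8 FPKM for Dusp1-201. Junb-201, at 49.2 and 23.5 FPKM, was above Dusp1-201 on average in control mice and below it in HuRAKO mice.

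The intervals show which differences the data could still hide. As a ratio of HuRAKO to control, on the scale of FPKM + 1, the 95% interval ran from 0.282 to 6.14 for Fos and from 0.216 to 2.11 for Junb. Adding 1 makes changes of low genes such as Fosb appear smaller, and the interval was narrowest for Fosb, at 0.655 to 1.56. For all 10 members it included both no change and a change of more than 1.5-fold in at least 1 direction, so that a p above the threshold does not show equal levels.

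The members varied widely between mice of the same genotype. Their median residual SD was 0.67 on the log2(FPKM + 1) scale, against 0.18 over all tested genes, and each of the 10 had a larger residual SD than at least 83.5% of tested genes, from Fosb at that share to Fos at 99.6%. The SD was larger among control than among HuRAKO mice in 9 of 10 members, as in 56.7% of all tested genes. Its median over the members was 0.89 in control and 0.35 in HuRAKO mice, and over all tested genes 0.17 and 0.15. It was 1.94 in control and 0.54 in HuRAKO mice for Fos, 1.48 and 0.06 for Junb, 1.04 and 0.11 for Egr1 and 0.42 and 0.44 for Egr2. These are descriptions of 3 mice a group, and the difference in spread was not tested.

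**Figure D2:**
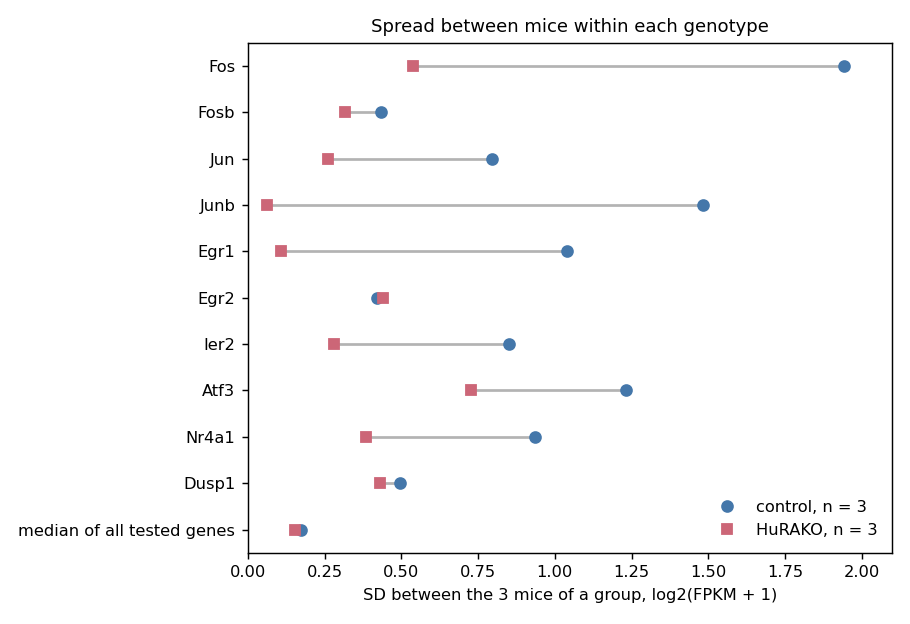
SD between the 3 mice of each group, on the log2(FPKM + 1) scale, for each member and, in the last line, the median over all tested genes (control in blue circles, HuRAKO in red squares). The control value is the larger for every member but Egr2, with the widest gap for Junb (1.48 against 0.06), and the 2 medians over all genes are 0.17 and 0.15.

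Among the control mice the members were low and high together. Control replicate 1 had the lowest value of the 6 mice in 9 of 10 members, as in 20.4% of all tested genes, and control replicate 3 the highest in 7 of 10, as in 27.1%. The highest value was in HuRAKO replicate 1 for Egr2 and in HuRAKO replicate 3 for Atf3 and Dusp1. The deviation of each mouse from the mean of a gene over the 6 mice gave the same order. Its median over the members was −0.85, 0.36 and 0.79 in control replicates 1 to 3 and −0.06, −0.07 and 0.02 in HuRAKO replicates 1 to 3 (log2 scale). All 10 members lay below their own mean in control replicate 1 and all 10 above it in control replicate 3, whereas in each HuRAKO mouse 5 or 6 lay below it. The medians near 0 in the HuRAKO mice came from members on both sides of their means. In HuRAKO replicate 1 the deviation was 0.74 for Egr2 and −0.43 for Dusp1, in HuRAKO replicate 2 it was 0.16 for Nr4a1 and −0.65 for Atf3, and in HuRAKO replicate 3 it was 0.80 for Fos and −0.61 for Nr4a1. Within the HuRAKO mice the members thus did not share a direction.

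The comparison of the genotypes turned on these control mice. They were picked from the members' own values, which fix the direction in which leaving out either mouse moves the differences. Without control replicate 1, 9 of the 10 members were lower in HuRAKO mice, as 56.3% of tested genes were. The median log2 fold change of the members was −0.61, beside −0.03 over all genes. With that mouse left out, 3 members passed the thresholds of the study, as 4.02% of tested genes did. These were Nr4a1 (log2 fold change −0.99), Egr1 (−0.73) and Junb (−1.32). Jun (−0.54) reached an unadjusted p of 0.029 but not the fold (limma). Without control replicate 3, 9 of the 10 were higher in HuRAKO mice and 1 was lower, as 49.9% of tested genes were. The median of the members was 0.20, beside 0.0004 over all genes. Only Egr2 passed (log2 fold change 0.83, unadjusted p = 0.0194, limma), as 3.28% of tested genes did. Egr2 also passed without HuRAKO replicate 2 (log2 fold change 0.80), as 2.97% of tested genes did, and in a fit that gives each mouse a weight by its spread (array weights), in which 3.14% of tested genes passed. No member passed an adjusted p of 0.05 without either control mouse, with smallest adjusted p-values of 0.498 without control replicate 1 and 0.437 without control replicate 3 (limma).

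**Figure D3:**
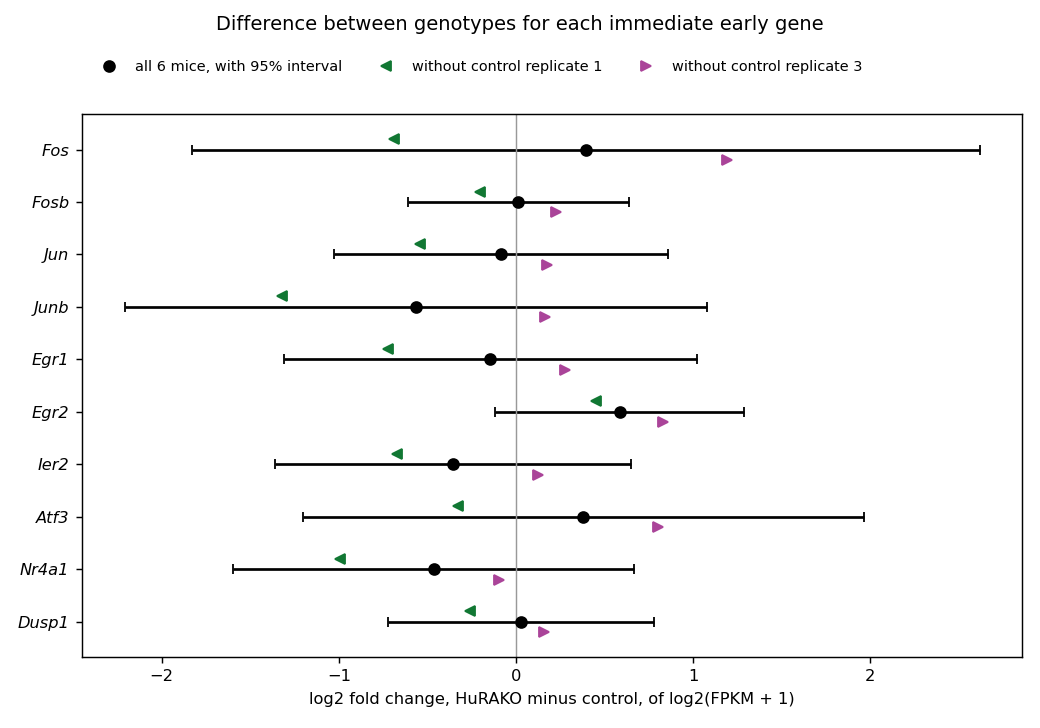
Log2 fold change (HuRAKO minus control, log2(FPKM + 1)) of each member: black points with 95% intervals are all 6 mice, green triangles leave out control replicate 1 and purple triangles leave out control replicate 3. All 10 intervals cross 0, every green triangle lies to the left of the purple one of its gene, and the sign differs between the triangles for all but Egr2 and Nr4a1.

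No transcript of the members passed the tests either. The transcript table listed 12 transcripts for the 10 members, 1 each for all but Fosb and Egr1, and 10 of them passed the filter. Of these, 0 passed an adjusted p of 0.05 by limma, as 14 of all 23233 tested transcripts did. Since 0 reached an unadjusted p under 0.05, 0 passed the thresholds of the study, as 4.59% of tested transcripts did. Egr1-202, the less abundant Egr1 transcript with the same coding length as Egr1-201, was listed at 2.58 FPKM in control replicate 2 and at 0 in the other 5 mice. Junb-201 was measured at 11.6, 37.0 and 99.2 FPKM in control and at 24.3, 24.0 and 22.3 FPKM in HuRAKO replicates 1 to 3, with the wide control spread of the gene.

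Other immediate early genes were then compared, from lists set out by function. Of 15 tested transcription factors of this class (of 17 listed; Fosl1 and Egr4 were not tested), 0 passed the thresholds of the study in either direction, and the median log2 fold change was −0.00. With the replicate number as a block 1 passed, Maff, as higher. Without HuRAKO replicate 1 Maff and Mafk passed as higher, and without HuRAKO replicate 3 Cebpb passed as lower. The 4 with the smallest p were Klf6 (log2 fold change 0.24), Mafk (0.56), Klf2 (−0.22) and Nr4a2 (−0.20), with unadjusted p of 0.134 to 0.183 (limma). Control replicate 1 was the lowest mouse in 6 of these 15 and control replicate 3 the highest in 7, and HuRAKO replicate 3 was also the highest in 7. Jund, which unlike Jun and Junb is expressed at a steady level in many cells, was measured at 57.8, 78.9 and 95.1 FPKM in control and at 72.1, 70.3 and 86.3 FPKM in HuRAKO replicates 1 to 3, with the order of the members among the controls but a smaller spread.

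Of 24 feedback and signalling genes of the early response, 0 passed the thresholds in either direction, with a median log2 fold change of 0.03. Control replicate 1 was the lowest mouse in 13 of them and control replicate 3 the highest in 12. Zfp36 encodes tristetraprolin, which speeds the decay of AU-rich mRNAs. It was measured at 26.3, 43.6 and 77.9 FPKM in control and at 29.6, 32.0 and 49.3 FPKM in HuRAKO replicates 1 to 3, low and high in the same mice as the members. Ier3 had the same order among the controls, with 5.51, 16.7 and 45.2 FPKM against 9.30, 12.9 and 19.7 FPKM. A different pattern was seen for Cyr61, which encodes a matricellular protein and is a target of YAP and serum response factor. It was measured at 17.3, 42.8 and 29.9 FPKM in control and at 44.5, 44.4 and 98.4 FPKM in HuRAKO replicates 1 to 3. It was the only 1 of the 24 whose groups did not overlap, beside 14.7% of all tested genes. Its log2 fold change of 1.02 did not pass (unadjusted p = 0.0505, adjusted p = 0.619, limma). Ctgf, a related gene, was measured at 5.18, 14.3 and 20.7 FPKM in control and at 19.4, 23.2 and 38.6 FPKM in HuRAKO replicates 1 to 3 (log2 fold change 1.08, adjusted p = 0.65, limma). With FPKM rescaled to a common sum, quantile normalization, a trend in the variance or the replicate number as a block, Cyr61 passed the thresholds as higher. It also did so without control replicate 2. Ctgf passed as higher with the block, with array weights and without control replicate 3, and Trib1 without control replicate 3. After Cyr61 and Ctgf, Dusp4 (log2 fold change −0.76) and Plk2 (0.36) had the smallest p, with unadjusted p of 0.123 and 0.184 (limma). Dusp4 passed as lower without HuRAKO replicate 2.

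**Figure D4:**
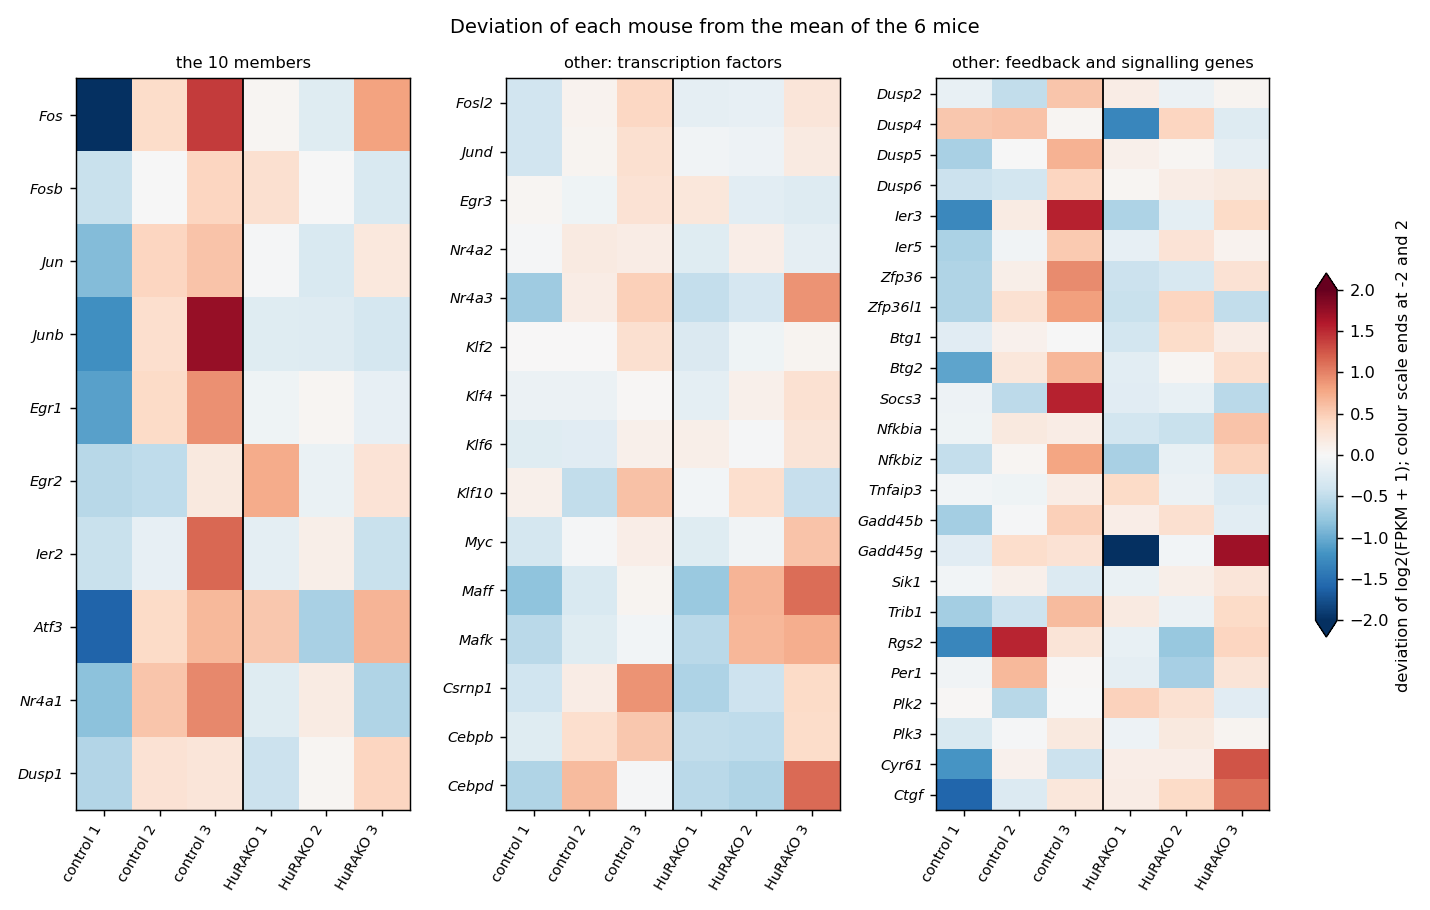
Deviation of each mouse (columns, controls left of the line) from the mean of the 6 mice in log2(FPKM + 1), for the 10 members and the other immediate early genes tested (rows); blue is below and red above the mean of the gene, and the colour scale ends at −2 and 2. The column of control replicate 1 is blue for all 10 members and that of control replicate 3 red for all 10, while the other 2 panels are more mixed, with Cyr61 and Ctgf highest in HuRAKO replicate 3.

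Upstream of these genes stand the kinases of the ERK, p38 and JNK cascades and the factors of the CREB, ternary complex and serum response families. Of 19 tested, Mapk14, the p38α kinase, passed the thresholds of the study as higher in HuRAKO mice and 0 passed as lower, beside 1.27% and 1.35% of all tested genes. Mapk14 was measured at 12.4, 21.1 and 10.8 FPKM in control and at 24.4, 24.1 and 19.6 FPKM in HuRAKO replicates 1 to 3. Its groups overlapped, since control replicate 2 lay above HuRAKO replicate 3, and its log2 fold change of 0.64 (unadjusted p = 0.0393) had an adjusted p of 0.601 (limma). Mapk14 no longer passed the thresholds in a fit with no variance estimate shared over genes (no moderation) or with array weights. Nor did it pass without control replicate 1 or 3 or without HuRAKO replicate 1 or 2. Mkl2, a coactivator of serum response factor, was the only 1 of the 19 without overlap between the groups, beside 14.7% of all tested genes. It was measured at 6.71, 6.45 and 7.41 FPKM in control and at 9.33, 8.60 and 8.07 FPKM in HuRAKO replicates 1 to 3 (log2 fold change 0.30, below the fold threshold). Creb1, the factor that binds the cAMP response element, was measured at 0.598, 4.38 and 2.90 FPKM in control and at 4.28, 4.73 and 4.47 FPKM in HuRAKO replicates 1 to 3 (log2 fold change 0.77, adjusted p = 0.725, limma). It shared with the members its low value in control replicate 1, but not the high one in control replicate 3. Without control replicate 2, Creb1 passed the thresholds as higher. The fourth by p was Atf1 (log2 fold change −0.23, unadjusted p = 0.103, limma). The list as a whole was the lowest in control replicate 1 in 2 of 19 genes.

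Partners of the members did not pass either. Of 4 partners of EGR and NR4A proteins, Rxra, Rxrb, Nab1 and Nab2, 0 passed the thresholds, with log2 fold changes of 0.49, −0.17, −0.02 and 0.01. Of 8 bZIP partners of AP-1, 0 passed, with a median log2 fold change of −0.10 and Batf3 (0.26), Maf (−0.22) and Mafg (−0.13) among the first by p. Of 8 factors that bind AU-rich mRNAs, Elavl1 and Zfp36 included, 0 passed, with a median of −0.13. Khsrp, a decay factor, was the only 1 of these 8 without overlap between the groups, beside 14.7% of all tested genes (log2 fold change −0.17, unadjusted p = 0.157, limma).

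Inducible heat shock genes, which respond to stress through another factor, were compared beside the members. Of 10 tested, 0 passed the thresholds, and the median log2 fold change was 0.05. Control replicate 1 was the lowest mouse in 7 of the 10 and control replicate 3 the highest in 2. Hspa1a, which encodes an inducible HSP70, was measured at 4.19, 27.1 and 5.30 FPKM in control and at 4.73, 4.65 and 5.01 FPKM in HuRAKO replicates 1 to 3, and Hspa1b at 7.24, 37.0 and 10.02 FPKM against 8.16, 9.18 and 8.36 FPKM. Both were high in control replicate 2 alone, a mouse in which the median deviation of the members was 0.36. Hsp90aa1 (log2 fold change 0.42) and Hsph1 (0.31) did not pass either, though Hsp90aa1 passed as higher without control replicate 2.

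Markers of other cell types moved over the same mice, and their part in the levels of the members was not tested. All 14 macrophage markers had their highest value in control replicate 3, where 7 of 10 members did. Their summed level was 1083 to 3226 FPKM in control and 1205 to 1933 FPKM in HuRAKO mice, no marker of the list was at 0 in all mice, and 0 of 14 passed the thresholds. The median log2 fold change was −0.21, with 10 markers lower in HuRAKO mice, among them Itgam (−0.97), Cd14 (−0.23), Cd163 (−0.49) and C1qa (−0.43), and 4 higher, Mpeg1 (0.50), Adgre1 (0.38), Cd68 (0.36) and Ptprc (0.17). Without control replicate 3 these 4 passed the thresholds as higher, beside 3.28% of all tested genes that passed in either direction. Itgam passed as lower without control replicate 2 and also without HuRAKO replicate 2. In control replicate 1, where the members were lowest, the median deviation of the macrophage markers was −0.22, and it was lower still in control replicate 2 at −0.50 and in HuRAKO replicate 2 at −0.40. The 6 tested neutrophil markers of 8, with Cxcr2 and Ly6g not tested, summed to 13.9 to 49.7 FPKM in control and 12.4 to 30.5 FPKM in HuRAKO mice, and 1 passed as lower, Mmp9 (log2 fold change −1.19).

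Of 10 mesothelial markers 8 passed as lower in HuRAKO mice, among them Bnc1 (log2 fold change −0.69), Krt8 (−1.16), Upk3b (−0.89) and Krt19 (−0.98). Their summed level was 216 to 363 FPKM in control and 118 to 169 FPKM in HuRAKO mice. The mesothelial markers were also highest in control replicate 3, in 8 of 10 genes, with a median deviation of 0.82, but they were not low in control replicate 1, at 0.06. Of 10 endothelial markers 5 passed as higher (Cdh5, Kdr, Flt1, Robo4 and Erg), with a summed level of 178 to 220 FPKM in control and 276 to 364 FPKM in HuRAKO mice. Of 10 smooth muscle and pericyte markers 4 passed as higher (Acta2, Tagln, Mylk and Abcc9), at 195 to 261 FPKM against 343 to 499 FPKM. Of 10 progenitor and fibroblast markers 0 passed, at 866 to 1498 FPKM against 781 to 904 FPKM, with Dpt (log2 fold change −0.53), Dcn (−0.41), Cd34 (−0.48) and Pi16 (0.35) first by p. Without control replicate 2 Dpt and Cd34 passed as lower, and without HuRAKO replicate 1 Cd34 did. Of the 12 adipocyte markers 1 passed, Lep, the leptin gene, as higher (log2 fold change 1.49), and the list had its lowest summed level in control replicate 3. Of 8 skeletal muscle markers only Acta1 passed the filter, and of 10 markers of the epididymis only Adam7 and Cuzd1 did, and 0 of these passed the thresholds. With a mouse left out, Acta1 passed as higher (without HuRAKO replicate 1) and Adam7 as lower (without control replicate 3).

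**Figure D5:**
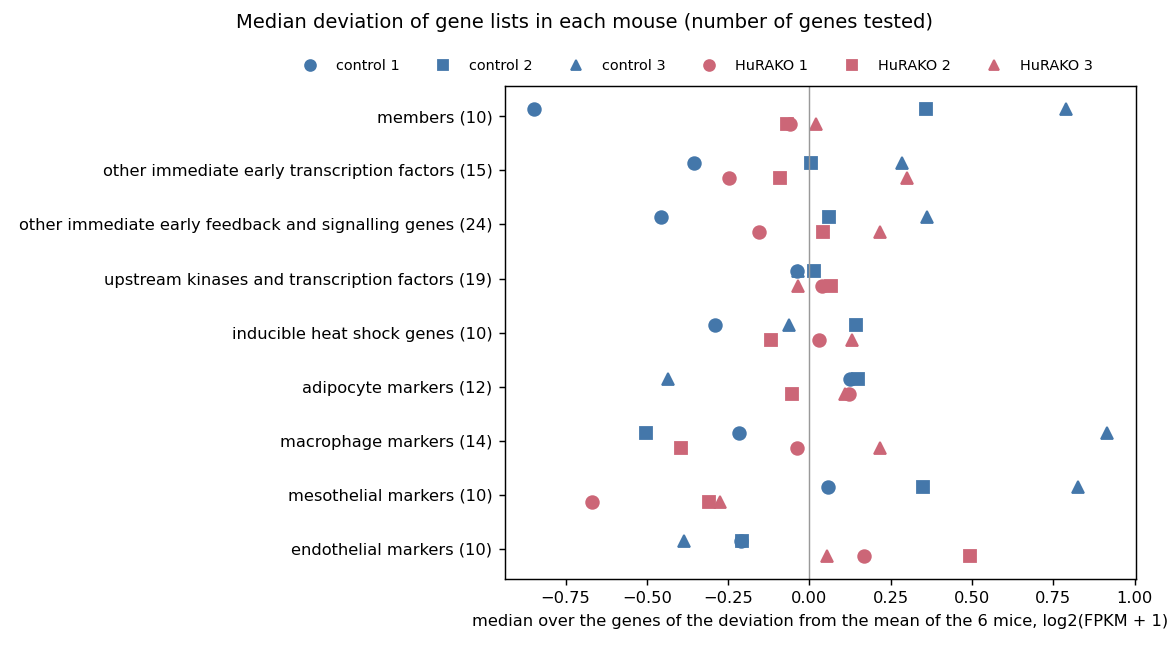
Median over the genes of each list of the deviation from the mean of the 6 mice (log2(FPKM + 1)), with 1 symbol per mouse, controls in blue and HuRAKO mice in red. For the members control replicate 1 lies at −0.85 and control replicate 3 at 0.79, with the 3 HuRAKO mice within 0.07 of 0; macrophage and mesothelial markers share the high value of control replicate 3 but not the low value of control replicate 1.

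The genes outside the members whose profile over the 6 mice was most like theirs were named by the mean absolute difference, over the mice, between the deviations of a gene and the median deviations of the members. Among the members this difference ran from 0.12 for Egr1 and 0.13 for Jun to 0.46 for Atf3, 0.48 for Egr2 and 0.53 for Fos. Its median over all tested genes was 0.40, so that Atf3, Egr2 and Fos lay farther from the profile than the median gene. The difference depends on the size of the deviations and not only on their order over the mice. In control replicates 1 to 3 Fos deviated by −2.36, 0.37 and 1.40, beside −0.85, 0.36 and 0.79 for the profile. In HuRAKO replicates 1 to 3 it deviated by 0.03, −0.24 and 0.80, beside −0.06, −0.07 and 0.02. The 10 nearest genes were the chloride transporter gene Clcn5 (0.13), Cldnd1 (0.15), Slfn5 (0.16), the circadian repressor gene Ciart (0.17), Gpr39 (0.17), Btg2 (0.17), Nfatc2 (0.18), the cyclin D1 gene Ccnd1 (0.18), the copper transporter gene Slc31a2 (0.18) and Gm7030 (0.18). Btg2, an antiproliferative gene of the early response, was the only one of them in the lists above. It was measured at 24.4, 60.4 and 82.4 FPKM in control and at 44.7, 53.4 and 65.2 FPKM in HuRAKO replicates 1 to 3. Ccnd1 was measured at 6.53, 10.1 and 18.3 FPKM in control and at 9.58, 9.63 and 7.94 FPKM in HuRAKO replicates 1 to 3. With 6 mice, a like profile is a description of these libraries.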

How the data were processed

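RNA of epididymal adipose tissue from 3 control and 3 HuRAKO mice was sequenced, 1 library per mouse. The authors deposited 2 tables, of FPKM per gene and of FPKM per transcript, and the submitters' processing notes name Bowtie 0.12.2 and GRCm38. The program that computed FPKM is not given in the sources used here, and the labels and the methods name different library kits and instruments. All 6 value columns of each table were used (0 left out), 1 empty line per table was dropped, and gene FPKM summed to 250270 to 264055 per mouse.

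Tests used log2(FPKM + 1), on which changes of low genes appear smaller, with no further scaling. The 12847 genes with an average of 0.5 FPKM or more were tested with limma 3.58.1 (R 4.3.3), two-sided, with Benjamini-Hochberg adjustment over all of them, and two-sided exact permutation tests over mice were run for the members. The fit was tested on simulated data. The members and lists were chosen with earlier results of these data known. Named were all members, every list gene past a threshold or otherwise the 4 with the smallest p, and the 10 nearest profiles. A gene that this rule would name is not reported here. Jund, Zfp36, Ier3 and the transcripts were chosen after their values were seen. Where a symbol occurred more than once, lists used the row with the higher mean.

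Pairing was checked by correlating, over genes, how far mice of the same replicate number lay from the mean of their group. The 3 pairs gave r of 0.101, 0.175 and 0.22, each above the limit of 0.1, so a fit with the replicate number as a block was added. Whether the mice were paired is not known, and all values not said to come from the block are from unpaired fits. The labels give no meaning for the numbers, and control replicate 1 with HuRAKO replicate 2 gave 0.106. Other pseudocounts, filters, scalings and models of the variance were tried, as were a replicate block and leaving out each mouse. Python 3.11.15, numpy 2.4.6, pandas 2.3.3 and matplotlib 3.10.9 were used.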

Additional observations from a re-analysis of the deposited data

How the results depend on the processing

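No member passed an adjusted p of 0.05 under any of the 16 alternatives, and the smallest adjusted p of any member was 0.393 (limma, Egr2 with array weights). Of 98 member values from settings that kept all mice, 97 kept their direction, and the exception was Egr1, with a log2 fold change of 0.0025 under array weights (adjusted p = 0.998). For Egr2, a low gene, the log2 fold change was 0.95 with a pseudocount of 0.1 and 1.02 with 0.01, beside 0.59 as reported. With a mouse left out, 13 of 60 changed direction. The log2 fold change of each member then ran from −0.69 to 1.19 for Fos, −0.20 to 0.23 for Fosb, −0.54 to 0.18 for Jun, −1.32 to 0.16 for Junb, −0.73 to 0.28 for Egr1, 0.36 to 0.83 for Egr2, −0.67 to 0.13 for Ier2, −0.33 to 0.80 for Atf3, −0.99 to −0.10 for Nr4a1 and −0.26 to 0.25 for Dusp1. The count of members past the thresholds of the study, 0 as reported, was 1 with array weights (Egr2) and 0 to 3 with a mouse left out. The count of all genes at an adjusted p of 0.05, 1 as reported, was 0 with a pseudocount of 0.1 or 0.01, with no moderation and with the replicate block, 2 with quantile normalization, 3 with a mean of at least 5 FPKM, with a common sum and with array weights, and 0 to 3 with a mouse left out. The count past the thresholds of the study, 337 as reported, was 563 and 583 with a pseudocount of 0.1 and 0.01, 187 with a mean of at least 5 FPKM, 213 with no moderation, and 371 to 518 with a mouse left out. With the replicate number as a block, in case the mice were paired, it was 384, and 0 members passed either threshold. Of the genes of the other lists, the block added Maff, Cyr61 and Ctgf as higher and Muc16 as lower and removed none. The filter of 5 FPKM left out 2 members, Fosb and Egr2. Depth is unknown, and the number of mice limits the precision.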
